A study of Mus musculus with 36 samples.

Results

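Expression of 10 genes of prostaglandin and leukotriene metabolism was followed in tumour-associated macrophages (TAMs) and CD8 T cells. The genes were taken by name from a deposited table of 24781 genes, and all 10 names were found: Ptgs1, Ptgs2, Ptges, Alox5, Alox5ap, Ltc4s, Hpgds, Ptger2, Ptger4 and Pla2g7. Prostaglandins and leukotrienes are signalling lipids that cells make from arachidonic acid, a fatty acid released from membrane phospholipids. The cyclooxygenase branch leads to prostaglandins such as PGE2 and PGD2, and the 5-lipoxygenase branch leads to leukotrienes. Macrophages are a known source of both, and PGE2 acting through the receptors EP2 and EP4 is known to restrain T cells in tumours.

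The study asked how B cells and GABA, a neurotransmitter that B cells can release, act on immune cells of a tumour. MC38 colon carcinoma cells, a mouse line, were inoculated intradermally, and on day 7 TAMs (CD45+ CD11b+ F4/80 high) and CD8 T cells (CD45+ TCRβ+ CD8+) were sorted in lots of 100 cells for digital RNA sequencing, which counts distinct RNA molecules by molecular barcodes. For each cell type there were 6 libraries from WT mice, 6 from muMt-/- mice, whose B cells do not mature, and 6 from mice of this genotype under whose skin a pellet slowly released GABA. Each library came from 1 mouse. By the study's methods the muMt-/- mice were C57BL/6J, and its WT mice were either C57BL/6J or C57BL/6N. Which of these the WT libraries came from is not stated, so genotype and substrain cannot be told apart. Over the study as a whole the mice were of both sexes and aged 2 to 5 months. By the study's methods the WT and muMt-/- groups carried a placebo pellet, which the sample labels do not name. The muMt-/- mice lack B cells from birth, so the comparison is not one of acute B cell loss.

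TAM libraries held more molecules than CD8 libraries, and depth differed between the groups of both cell types. Totals ran from 206394 to 304100 molecules in WT TAMs (median 242756), from 100254 to 253608 in muMt-/- TAMs (median 149960) and from 151856 to 262606 in TAMs of GABA-treated muMt-/- mice (median 192775). CD8 totals were 22896 to 76898 in WT (median 42065.5), 51064 to 77839 in muMt-/- (median 67121.5) and 65356 to 98015 with GABA (median 80283). Levels within a cell type are given below as normalized molecules, that is, molecules divided by the library's size factor. Levels across cell types are given as CPM, molecules of the gene per 1000000 molecules of the library. The counts are of 3' ends of RNA in single libraries of 100 cells, so a gene with few molecules is measured with a large counting error.

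Among the TAM libraries of GABA-treated mice, replicate 1 stood apart from the other 5. Compared by pairs over genes with enough molecules, its chi-squared per degree of freedom (1 for counting error alone) was 4.19 to 10.8, and among the other 5 it was 1.47 to 3.97. It had the lowest summed macrophage markers of the group (8725 CPM), the highest Ptgs2 and the lowest Alox5ap and Pla2g7. It was kept, and values without it are given for these 3 genes. TAM muMt-/- replicate 4 (3.36 to 4.18, the others 1.28 to 2.62) and CD8 muMt-/- replicate 1 (4.63 to 8.47, the others 1.87 to 4.44) also lay apart.

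The sorted cells carried the markers of their labels, although in some CD8 libraries the macrophage markers summed higher than the CD8 T cell markers. All 14 macrophage markers examined were detected in every group of TAMs, with Ctss the most abundant (4069 CPM in WT), whereas the 9 CD8 T cell markers together reached only 22.8 ± 17.2 CPM (SD, n = 6) in WT TAMs against 4504 ± 1172 CPM in WT CD8 libraries. CD8 libraries also held RNA of macrophage genes. The macrophage markers summed to 600.1 ± 653 CPM in WT CD8 libraries, 2160.4 ± 1883 CPM in muMt-/- and 1842 ± 1266 CPM with GABA (SD, n = 6 each). Without WT replicate 5 the WT mean was 337 ± 124 CPM, and without muMt-/- replicate 1 that of muMt-/- was 1428 ± 634 CPM (SD, n = 5 each). In the WT CD8 libraries Adgre1, Mrc1 and Mertk were at 0, and in both other groups all 14 were detected. The CD8 T cell markers summed to 3810 ± 1370 CPM in muMt-/- CD8 libraries and 4014 ± 1469 CPM with GABA (SD, n = 6 each). In CD8 muMt-/- replicate 1 they summed to 1669 CPM, against 5825 CPM of macrophage markers. In CD8 GABA replicates 1 and 3 they summed to 2112 and 2993 CPM, against 3153 and 3308 CPM.

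Of the 10 genes, 8 passed the filter on low numbers in TAMs (a mean above 1 normalized molecule over the 18 libraries) and 4 in CD8 T cells (Alox5ap, Pla2g7, Ptger4 and Ptgs2). Alox5 and Ltc4s passed in neither. In TAMs of muMt-/- against WT mice, 1 of the 8 genes tested was called at an adjusted p under 0.05 by edgeR's quasi-likelihood test, Ptgs2, which was higher. Over all 9469 genes tested, 194 were called, or 2.05%. DESeq2 called the same gene of the list, against a background of 2.03%. At an unadjusted p under 0.05, 2 of the 8 passed (Ptgs2 and Pla2g7) against 14.9% of all genes. The median log2 fold change of the 8 was 0.10, and that of all genes tested -0.05. The member median turned to -0.16 without muMt-/- replicate 4, and with no filter it was -0.08 over all 10 members.

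No member was called when GABA-treated muMt-/- TAMs were compared with muMt-/- TAMs, by edgeR (background 0.0211%) or DESeq2 (background 0.0845%). At an unadjusted p under 0.05 by edgeR 1 of the 8 passed, Ptgs2, which was lower, against 8.46% of all genes. Without muMt-/- replicate 4, or without GABA replicate 4, 0 of the 8 passed. The members' median log2 fold change was -0.12 and that of all genes 0.06, and leaving out 1 library gave member medians from -0.21 to 0.08. GABA-treated muMt-/- TAMs against WT TAMs also gave no call by edgeR (background 0.0739%) or DESeq2 (background 0.0422%), and 0 of the 8 passed at an unadjusted p under 0.05, against 7.02% of all genes. In this comparison the median was 0.29 for the members and 0.02 for all genes. Without GABA replicate 1, Pla2g7 passed at an unadjusted p and the medians were 0.08 and 0.01. These 3 comparisons use each group of libraries in 2 of them, so their values are not independent of one another.

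Ptgs2 (chr1:150100031-150108234, GRCm38) encodes cyclooxygenase-2, the inducible enzyme that starts prostaglandin synthesis. In WT TAMs the lowest, median and highest of 6 libraries were 29.8, 52.6 and 78.5 normalized molecules. In muMt-/- TAMs they were 71.3, 88.5 and 149, and with GABA 39.4, 53.6 and 121. Of the 6 muMt-/- libraries, 5 lay above every WT library and the sixth lay below only the highest WT library. The GABA group overlapped both others, with 4 of its 6 libraries below every muMt-/- library and 2 above every WT library.

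The means were 51.2 ± 17.0 in WT, 98.5 ± 27.3 in muMt-/- and 67.3 ± 30.7 with GABA (normalized molecules, SD, n = 6 each). Ptgs2 was 1.86-fold higher in muMt-/- than in WT TAMs, a log2 fold change of 0.90 (SE 0.22, 95% interval 0.47 to 1.33, edgeR adjusted p = 0.0218). From muMt-/- to GABA the log2 fold change was -0.55 (SE 0.22, edgeR adjusted p = 0.449), and the difference did not pass the test over all genes. From WT to GABA it was 0.35 (SE 0.22, 95% interval -0.09 to 0.79, adjusted p = 0.793). Without GABA replicate 1 these were -0.76 (SE 0.20, adjusted p = 0.0833) and 0.13 (SE 0.20, adjusted p = 0.979), and neither passed. With each library left out in turn, the first ran from -0.76 to -0.41 and the second from 0.13 to 0.52, with no call. Ptgs2 is among the TNF target genes that the study itself chose from these TAM libraries, so its direction here is not independent evidence.

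The call for Ptgs2 between muMt-/- and WT TAMs lay close to the threshold. It was lost under a robust fit (adjusted p = 0.0648) and with the log2 number of molecules of each library as a covariate (log2 fold change 0.78, SE 0.28, adjusted p = 0.327). Left out singly, WT replicate 1 (adjusted p = 0.0718), WT replicate 3 (0.0632) and muMt-/- replicate 4 (0.0984) each ended the call, and over the other 9 libraries the edgeR adjusted p stayed under 0.05. Without a library the log2 fold change ran from 0.75 to 1.07. Over the 18 TAM libraries the log2 number of Ptgs2 correlated with log2 depth at r = -0.50, and within groups at r = -0.13, which are descriptions of libraries that share their normalization.

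**Figure D1:**
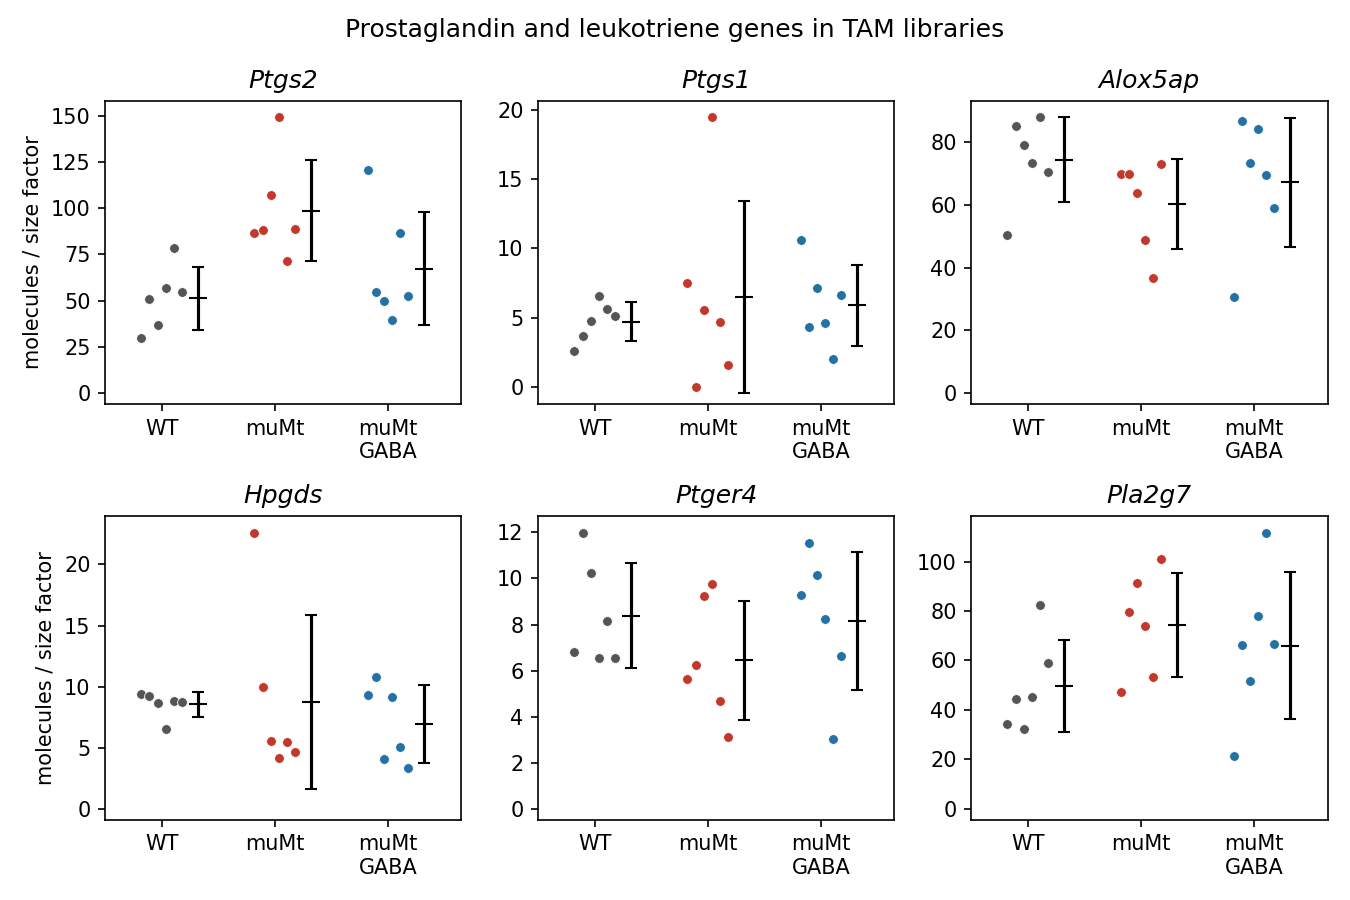
Normalized molecules (molecules divided by size factor, vertical axis) of 6 genes in each TAM library, by group (WT, muMt and muMt GABA, n = 6 each); points are libraries and the bars to their right show mean ± SD. For Ptgs2, 5 of the 6 muMt-/- libraries lie above every WT library, and the other 5 genes overlap between the groups.

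Some markers of other myeloid states also differed in this comparison. Ccr2, the chemokine receptor of inflammatory monocytes, was higher in muMt-/- than in WT TAMs (log2 fold change 0.84, SE 0.19, edgeR adjusted p = 0.0106), and so was Plac8 (0.90, SE 0.25, adjusted p = 0.0485). Other monocyte genes did not pass: Ly6c2 (0.38, SE 0.30, adjusted p = 0.610), Chil3 (0.60, SE 0.36, adjusted p = 0.443) and Hp (1.39, SE 0.79, adjusted p = 0.418). Among the macrophage markers the complement genes C1qb (-0.62, adjusted p = 0.0414) and C1qc (-0.57, adjusted p = 0.0483) and the lysozyme gene Lyz2 (-0.74, adjusted p = 0.0240) were lower, and the integrin gene Itgam was higher (0.66, adjusted p = 0.0277). The macrophage markers summed to 17089.7 ± 1830.4 CPM in WT (14765 to 19086), 14097 ± 1516 in muMt-/- (12405 to 15969) and 14233 ± 3214 with GABA (8725 to 17220.0). In such bulk samples a change in the share of a kind of cell and a change in RNA per cell cannot be told apart, and the part of these markers and of depth in the Ptgs2 result was not tested beyond the depth covariate.

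Markers of other cell types were also looked for in TAM libraries. Of 12 mast cell and basophil markers, 8 were at 0 in WT TAMs (among them Cpa3, Mcpt8 and Tpsb2), 10 in muMt-/- and 8 with GABA, and their sums were 6.92, 6.55 and 11.7 CPM. The 7 neutrophil markers summed to 68.4 ± 53.6, 111 ± 31.8 and 79.6 ± 26.5 CPM, led by Csf3r, with Retnlg at 0 in all 3 groups. Eosinophil markers (7 genes) held 1, 0 and 6 molecules in all, with Epx and Prg2 at 0. The 7 platelet markers summed to 120, 160 and 92.5 CPM, of which Pf4 made up 113, 156 and 90.0 CPM, while Gp9, Gp6 and Tubb1 were at 0.

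Dendritic cell markers (8 genes, led by Fscn1) summed to 47.1, 48.2 and 79.5 CPM in the WT, muMt-/- and GABA TAM groups, with Cd209a at 0. Of 6 epithelial markers, Epcam, Krt18 and Krt19 were at 0, and Cdh1 was higher in muMt-/- than in WT TAMs (log2 fold change 1.11, SE 0.28, edgeR adjusted p = 0.0287). The 8 stromal markers, led by Col3a1, were higher and uneven, with means of 1186 ± 2059, 712 ± 779 and 959 ± 821 CPM in the WT, muMt-/- and GABA TAM groups (SD, n = 6 each). They summed to 95.4 to 5366 CPM over the WT TAM libraries, the highest being replicate 6, and to 56.2 to 2008 in muMt-/- and 507 to 2619.9 with GABA. Their part in the results was not tested.

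Ptgs1 (chr2:36216742-36258593) encodes cyclooxygenase-1, the form most cells make constantly. In TAMs it was found in 17 of 18 libraries at 0 to 14 molecules. The lowest, median and highest were 2.56, 4.91 and 6.54 normalized molecules in WT, 0, 5.12 and 19.5 in muMt-/-, and 2.01, 5.61 and 10.6 with GABA. The groups overlapped, with 2 of the 6 muMt-/- libraries above and 2 below every WT library, and 3 of the 6 GABA libraries above and 1 below. The log2 fold change of muMt-/- against WT was 0.34 (SE 0.45, edgeR adjusted p = 0.804), and without muMt-/- replicate 4, the highest library, it was -0.31.

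Ptges (chr2:30889471-30931020) encodes the inducible prostaglandin E synthase that works downstream of the cyclooxygenases. It was sparse, with 57 molecules over the 18 TAM libraries and at most 7 in a library. Its means were 2.56 ± 2.43, 1.86 ± 1.84 and 4.11 ± 2.07 normalized molecules in WT, muMt-/- and GABA TAMs (SD, n = 6 each). No difference passed the test, the lowest adjusted p being 0.726 for GABA against muMt-/- (log2 fold change 0.91, SE 0.60).

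The leukotriene branch was represented mainly by Alox5ap (chr5:149265004-149288153), which encodes FLAP, the membrane protein that hands arachidonic acid to 5-lipoxygenase. It was found in all 18 TAM libraries at 23 to 140 molecules. The lowest, median and highest were 50.3, 76.2 and 87.9 normalized molecules in WT, 36.8, 66.6 and 73.0 in muMt-/-, and 30.5, 71.3 and 86.5 with GABA. The groups overlapped: 2 of the 6 muMt-/- libraries lay below every WT library and none above. The log2 fold change of muMt-/- against WT was -0.35 (SE 0.20, 95% interval -0.74 to 0.04, edgeR adjusted p = 0.417), and that of GABA against muMt-/- was 0.22 (SE 0.20, adjusted p = 0.813). Without GABA replicate 1 the latter was 0.37 (SE 0.17, adjusted p = 0.428).

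Its partner Alox5 (chr6:116410071-116461178), which encodes 5-lipoxygenase, was barely seen. TAM libraries held 15 molecules in total, at most 3 in a library, and 11 of the 18 libraries held any. Ltc4s (chr11:50236461-50238532), encoding the synthase that makes leukotriene C4, gave 6 molecules over the 18 TAM libraries and was found in 5 of them. Neither passed the filter. With no filter edgeR tested both and called neither in any TAM comparison, and at so few molecules a difference between the groups could easily be missed.

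Hpgds (chr6:65117293-65144981) encodes the haematopoietic prostaglandin D synthase. In TAMs the lowest, median and highest were 6.54, 8.75 and 9.38 normalized molecules in WT, 4.18, 5.51 and 22.6 in muMt-/-, and 3.32, 7.09 and 10.8 with GABA. The WT libraries lay close together, 4 of the 6 muMt-/- libraries lay below all of them, and muMt-/- replicates 1 and 2 lay above all of them. The means hid this spread, at 8.56 ± 1.03 in WT, 8.74 ± 7.10 in muMt-/- and 6.95 ± 3.18 with GABA (SD, n = 6 each), and the log2 fold change of muMt-/- against WT was -0.13 (SE 0.34, edgeR adjusted p = 0.909). With each library left out in turn, this log2 fold change ran from -0.52 to -0.02. Replicate 1 of muMt-/- had the fewest molecules of any TAM library and, at 12, the most Hpgds molecules of its group.

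The receptors for PGE2 were present at low levels. Ptger4 (chr15:5233399-5244187), encoding EP4, was found in all 18 TAM libraries at 2 to 16 molecules, with lowest, median and highest values of 6.54, 7.49 and 11.995 normalized molecules in WT, 3.11, 5.94 and 9.76 in muMt-/-, and 3.02, 8.77 and 11.5 with GABA. The groups overlapped, although 4 of the 6 muMt-/- libraries lay below every WT library. The log2 fold change of muMt-/- against WT was -0.36 (SE 0.32, edgeR adjusted p = 0.660). Ptger2 (chr14:44988111-45003820), encoding EP2, gave 0 to 4 molecules a library and means of 1.01 ± 0.608, 1.89 ± 0.907 and 1.61 ± 0.858 normalized molecules in WT, muMt-/- and GABA TAMs, and its log2 fold change of 0.86 from WT to muMt-/- had an SE of 0.62 (adjusted p = 0.568).

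Pla2g7 (chr17:43567994-43612202) encodes the secreted platelet-activating factor acetylhydrolase, which breaks down platelet-activating factor and oxidized phospholipids. In TAMs the lowest, median and highest were 32.4, 44.7 and 82.2 normalized molecules in WT, 47.1, 76.8 and 101 in muMt-/-, and 21.2, 66.4 and 112 with GABA. The groups overlapped, with 2 of the 6 muMt-/- libraries above every WT library. The means were 49.5 ± 18.6, 74.4 ± 21.0 and 65.9 ± 29.8 (SD, n = 6 each). The log2 fold change of muMt-/- against WT was 0.55 (SE 0.25, edgeR adjusted p = 0.275) and did not pass the test over all genes, and that of GABA against muMt-/- was -0.13 (SE 0.24, adjusted p = 0.927), or 0.04 (SE 0.21, adjusted p = 0.977) without GABA replicate 1. That of GABA against WT was 0.42 (SE 0.24, adjusted p = 0.765), or 0.58 (SE 0.21, adjusted p = 0.580) without this library.

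Correlations between members across TAM libraries ran from r = -0.42 to 0.45. Among the 6 members with a mean of at least 5 normalized molecules, the highest correlation of log2 values over the 18 libraries was that of Ptger4 with Ptgs1 (r = 0.45), followed by Alox5ap with Pla2g7 (r = 0.44, and 0.67 after subtracting group means). Ptgs2 and Pla2g7, both with a positive log2 fold change in muMt-/- TAMs, correlated at r = 0.29 over the 18 libraries and at 0.04 within groups. The lowest was that of Pla2g7 with Ptger4 (r = -0.42).

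Of 5309 other genes with a mean of at least 5, those most like each member over the 18 TAM libraries were picked by Pearson r of log2 values. For Ptgs2 they were Zeb2 (r = 0.89), Stk17b (0.87) and Thbs1 (0.86). For Pla2g7 they were the class II antigen presentation gene H2-Eb1 (0.92), the ferritin gene Fth1 (0.89) and Cd74 (0.88), the invariant chain of class II. Alox5ap was closest to Man2b1 (0.86), Phf11b (0.85) and H3f3a (0.84).

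Within groups the Ptgs2 values were lower, at 0.79, 0.78 and 0.74, whereas those of Pla2g7 stayed at 0.93, 0.87 and 0.89. The sparser members had looser neighbours: Cstf3 (0.82), Filip1l (0.82) and Glg1 (0.79) for Ptgs1, Plau (0.77), Eif3a (0.71) and Mogs (0.71) for Hpgds, and Ddx19a (0.77), Cox20 (0.74) and Esyt2 (0.72) for Ptger4. The highest of so many values is high by selection, and all share the libraries' depth and scaling.

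A wider list of 69 genes of the pathway that leaves out the 10 members was examined in the same fits. In TAMs 32 of the 69 passed the filter: 5 of 15 phospholipases and related lipases, 6 of 8 in prostanoid synthesis, 5 of 15 lipoxygenase and leukotriene genes, 6 of 7 in breakdown, 3 of 14 receptors, 2 of 3 transporters and 5 of 7 in platelet-activating factor metabolism. None was called in any of the 3 TAM comparisons by edgeR or DESeq2, and at an unadjusted p under 0.05 edgeR passed 4, 2 and 1 and DESeq2 3, 2 and 1. By edgeR these are 12.5%, 6.25% and 3.13% of the 32, below the 14.9%, 8.46% and 7.02% of all genes. Median log2 fold changes were -0.03, 0.05 and 0.13 for muMt-/- against WT, GABA against muMt-/- and GABA against WT, beside -0.05, 0.06 and 0.02 over all genes.

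In muMt-/- against WT TAMs, 4 of the 32 had an unadjusted p under 0.05, a smaller share than that of all genes. All 4 were higher in muMt-/-, as were 45.2% of all genes at such a p. The smallest were those of Cysltr1, a receptor for cysteinyl leukotrienes (log2 fold change 0.73, SE 0.24, edgeR adjusted p = 0.0900), Mgst1, a microsomal glutathione transferase (0.88, SE 0.28, adjusted p = 0.0916), and Ltb4r1, the high-affinity receptor for leukotriene B4 (0.79, SE 0.28, adjusted p = 0.131). Cysltr1 stood at 12.02 ± 3.04 normalized molecules in WT, 21.0 ± 7.36 in muMt-/- and 13.6 ± 4.34 with GABA. The fourth was the transporter gene Abcc1 (0.56, SE 0.25, adjusted p = 0.277).

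Against muMt-/- TAMs, GABA gave 2 of the 32 at an unadjusted p under 0.05, Cysltr1 (-0.61, SE 0.24, adjusted p = 0.435) and Fam213b (1.90, SE 0.75, adjusted p = 0.440), which encodes a prostamide and prostaglandin F synthase and was found in 2 of the 6 muMt-/- libraries. Next was Pla2g16 (0.47, SE 0.25, adjusted p = 0.624). Against WT TAMs 1 of the 32 did, Pafah1b3 (0.73, SE 0.27, adjusted p = 0.525), followed by Mgst1 (0.54, SE 0.28, adjusted p = 0.732) and Cbr1 (-1.25, SE 0.71, adjusted p = 0.764). None of these passed the test over all genes.

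The members were also compared between the cell types. In WT libraries 5 of the 6 members tested were called between TAMs and CD8 T cells, all higher in TAMs, against a background of 24.6% of 8174 genes, of which 72.1% were higher in TAMs (edgeR adjusted p under 0.05). Among the 5 were Hpgds and Ptgs1, which were at 0 in all WT CD8 libraries, passed the filter through TAMs alone and so could only come out higher there. The median log2 fold change was 3.94 as fitted and 2.503 with Hpgds and Ptgs1 at their lower bounds, beside 0.30 for all genes. The genes that passed the filter did so largely through the TAM libraries, so their number says little by itself.

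In the WT groups Pla2g7 was at 175 to 431 CPM (median 240) in TAMs and at 0 in 4 of 6 CD8 libraries, the highest being 58.0 CPM. Its log2 fold change was 4.35 (SE 0.50, edgeR adjusted p = 4.3e-10). Alox5ap was at 269 to 460 CPM (median 414) in TAMs and 0 to 135 (median 32.8) in CD8 libraries, a log2 fold change of 3.52 (SE 0.37, adjusted p = 1.62e-11). Ptgs2 was at 159 to 411 CPM (median 282) in TAMs and 0 to 135 (median 19.5) in CD8 libraries, a log2 fold change of 3.01 (SE 0.41, adjusted p = 4.33e-08). For each of these genes the lowest WT TAM library lay above the highest WT CD8 library. How many of all genes tested were separated in this way was not counted, so this is not a trait particular to them. Without CD8 WT replicate 5, the highest for all 3, the log2 fold changes were 5.83, 4.61 and 4.09.

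Hpgds was never seen in CD8 T cells, with 0 of 1154683 molecules in 18 libraries, which allows at most 2.60 CPM (3 counts over all libraries, counting error only). With the floor set over the group, Hpgds was at least 3.998-fold higher in TAMs than in CD8 T cells of WT mice, and at least 5.31-fold higher in muMt-/- and 6.06-fold with GABA. Ptgs1 was at 0 in all 6 WT CD8 libraries and at least 2.27-fold higher in WT TAMs. These bounds cover counting error only, and no p is given for them. Ltc4s was also at 0 in all 18 CD8 libraries, and Alox5 was at 0 in all but 2 of them.

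Ptger4, of EP4, was not called between the cell types. It was found in all 18 CD8 libraries, at 1 to 6 molecules each, and stood at 38.7 to 79.1 CPM (median 68.2) in WT CD8 libraries and 35.6 to 63.0 (median 39.6) in WT TAMs. The ranges overlapped, and the log2 fold change of TAMs against CD8 T cells was -0.23 (SE 0.40, 95% interval -1.005 to 0.55, adjusted p = 0.744). Ptger2 was found in 9 of 18 CD8 libraries at up to 4 molecules, and Ptges in 7 of 18 at up to 5. Neither passed the filter between WT TAMs and WT CD8 T cells, and with no filter edgeR called neither there. In some groups their pooled level was higher in CD8 libraries: Ptger2 stood at 19.0 CPM (5 molecules) against 5.45 in TAMs (8 molecules) of WT mice, and Ptges at 17.3 (7 molecules) against 11.1 (11 molecules) in muMt-/-. Alox5 stood at 9.91 against 4.05 CPM in muMt-/-, with 4 molecules in each. Such numbers are too few to rank the cell types.

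**Figure D2:**
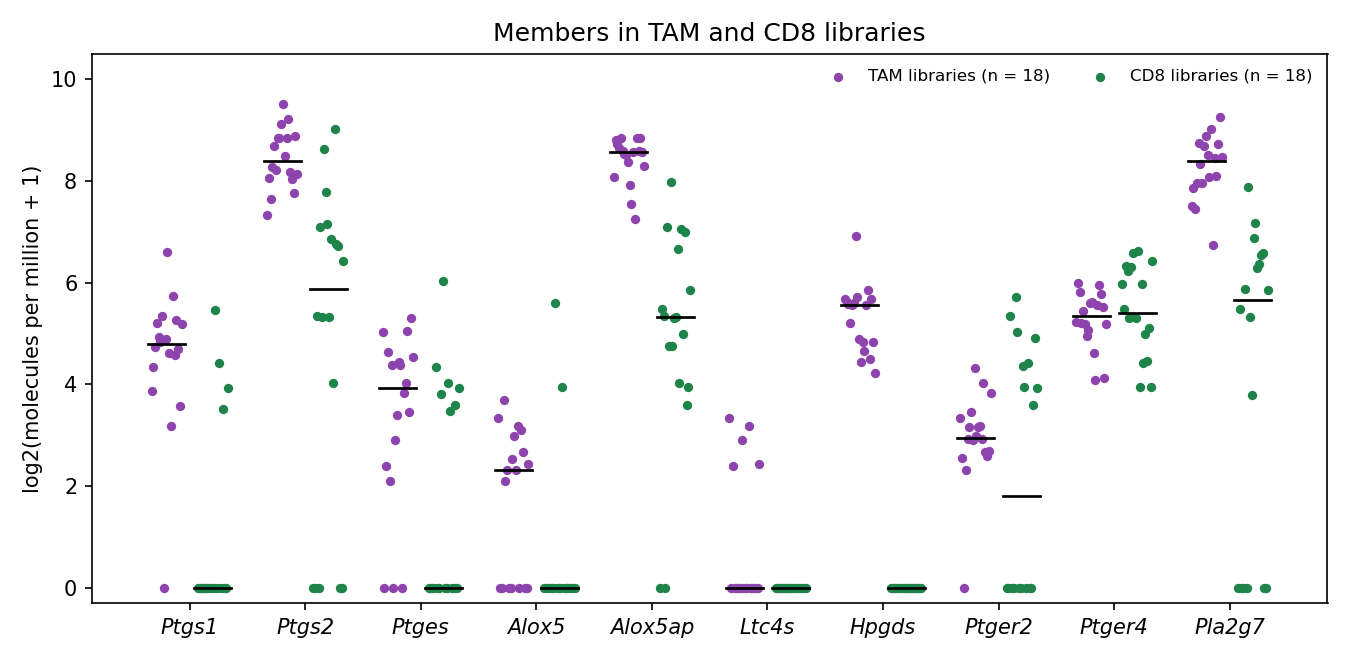
Level of each of the 10 genes as log2(CPM + 1) in every TAM and CD8 library (n = 18 each, the 3 groups together); points are libraries and short lines are medians. Hpgds and Ltc4s lie at 0 in all 18 CD8 libraries, and Ptger4 lies at similar heights in both cell types.

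Of the wider list, 27 of 69 genes were tested between WT TAMs and WT CD8 T cells. Of these 14 were called by edgeR and 12 by DESeq2. The 14 were all higher in TAMs, beside 24.6% of all genes called and 72.1% of those higher in TAMs, and the list passed the filter largely through the TAM libraries. The median log2 fold change over the 27 was 2.30 as fitted and 1.63 with Cyp4f16 and Pla2g15 at their lower bounds. The 6 with the largest fitted change rested on few CD8 molecules. Pla2g15, a lysosomal phospholipase, and Cyp4f16 were at 0 in WT CD8 libraries and at least 3.76-fold and 1.79-fold higher in TAMs (floor of 3 counts over the group).

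The other 4 had 1 to 3 molecules in all WT CD8 libraries together, so only their ratios of pooled CPM are given. Cyp4f18 stood at a ratio of 23.1 (95% exact counting interval 6.33 to 192). Cysltr1 stood at 17.0 (2.98 to 679), Dpep2, a dipeptidase that acts on leukotriene D4, at 16.6 (2.92 to 665) and Lpcat2, an enzyme that makes platelet-activating factor, at 15.5 (5.25 to 75.7). Also called, with 1 to 5 CD8 molecules each, were Abcc1, Daglb, Fpr2, Ltb4r1, Mgst1, Pla2g4a, Ptafr and Tbxas1.

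Between the groups of CD8 T cells no gene was called by edgeR in any of the 3 comparisons, members included. In muMt-/- against WT, 0 of 4 members passed by edgeR (background 0%) and 0 by DESeq2 (background 0%), and 2 of 4 at an unadjusted p under 0.05 by edgeR (background 6.17%). With GABA against muMt-/- the member counts were 0 by edgeR (background 0%), 0 by DESeq2 (background 0%) and 0 at an unadjusted p (background 3.71%). With GABA against WT they were 0 by edgeR (background 0%), 0 by DESeq2 (background 0.0150%) and 2 at an unadjusted p (background 6.89%). The members' median log2 fold changes were 1.48, -0.42 and 1.32 in this order, and those of all 6663 genes 0.15, 0.03 and 0.21. Of all genes at an unadjusted p under 0.05, 87.1% were higher in muMt-/- than in WT and 86.9% higher with GABA than in WT. The members at such a p against WT included Pla2g7, whose WT mean of 0.97 normalized molecules lay under the filter. Pla2g7 passed the filter through the muMt-/- and GABA libraries (means 6.20 and 3.22). The member counts against WT therefore say little by themselves. With the log2 number of molecules of each library as a covariate, the members' medians were 0.87, -0.61 and 0.24, and 1, 0 and 0 members had such a p, the 1 being Pla2g7. Single libraries moved the medians as well. That of muMt-/- against WT was 0.84 without muMt-/- replicate 1 and 2.53 without WT replicate 5, and that of GABA against WT was 0.45 without GABA replicate 1 and 2.41 without WT replicate 5. That of GABA against muMt-/- was 0.01 without muMt-/- replicate 1 and -0.81 without GABA replicate 1.

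The 2 members at an unadjusted p under 0.05 were Pla2g7 and Ptgs2. Pla2g7 had lowest, median and highest values of 0, 0 and 3.43 normalized molecules in WT CD8 libraries, 0.762, 5.45 and 15.2 in muMt-/-, and 0, 4.12 and 5.58 with GABA. Ptgs2 had 0, 1.11 and 8.003 in WT, 0.833, 7.46 and 25.3 in muMt-/-, and 0, 5.46 and 32.4 with GABA. Both genes overlapped between all groups, although 4 of 6 muMt-/- libraries lay above every WT library for Pla2g7 and 3 of 6 for Ptgs2. The log2 fold changes of muMt-/- against WT were 2.67 (SE 0.82, edgeR adjusted p = 0.360) for Pla2g7 and 1.99 (SE 0.83, adjusted p = 0.686) for Ptgs2, and those of GABA against WT were 1.86 (SE 0.88, adjusted p = 0.687) and 1.91 (SE 0.82, adjusted p = 0.617). These values moved with single libraries. Ptgs2 from WT to GABA stood at 0.57 without GABA replicate 1 and 2.98 without WT replicate 5. From WT to muMt-/-, Ptgs2 stood at 1.51 without muMt-/- replicate 1 and 3.05 without WT replicate 5, and Pla2g7 ran from 2.24 to 4.004 without the same libraries. With depth as a covariate, the log2 fold changes of Ptgs2 were 1.12 (SE 0.90, edgeR adjusted p = 0.9996) from WT to muMt-/- and 0.29 (SE 1.08, adjusted p = 0.998) from WT to GABA. Those of Pla2g7 were larger than without the covariate, at 3.07 (SE 0.98, edgeR adjusted p = 0.9996) and 2.47 (SE 1.22, adjusted p = 0.998). With no filter on low numbers edgeR called both genes in muMt-/- against WT (adjusted p = 0.00691 for Pla2g7 and 0.0046 for Ptgs2). It also called Ptgs2 in GABA against WT (adjusted p = 0.00743). Of all 13109 genes tested with no filter, 72 were called in muMt-/- against WT and 64 in GABA against WT.

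Alox5ap had 0, 1.86 and 8.003 normalized molecules as lowest, median and highest in WT CD8 libraries, 0.833, 2.26 and 16.2 in muMt-/-, and 0.620, 2.49 and 8.26 with GABA, and its log2 fold change of 0.97 from WT to muMt-/- had an SE of 0.71 (edgeR adjusted p = 0.940). It was 0.18 without muMt-/- replicate 1 and 2.02 without WT replicate 5. Ptger4, the EP4 gene, had 2.29, 3.90 and 4.51 in WT, 0.818, 2.81 and 6.07 in muMt-/-, and 0.781, 1.55 and 4.73 with GABA, with 5 of 6 GABA libraries below every WT library. The log2 fold change of GABA against WT was -0.76 (SE 0.52, adjusted p = 0.805), at 1 to 6 molecules a library. Without GABA replicate 6, the highest of its group, it was -1.21 (adjusted p = 0.709), with an unadjusted p under 0.05.

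Of the wider list 16 of 69 genes were tested in CD8 T cells and none was called by edgeR or DESeq2. At an unadjusted p under 0.05 edgeR passed 3 in muMt-/- against WT (Cyp4f18, Ltb4r1 and Mgst1), 0 in GABA against muMt-/- and 2 in GABA against WT (Abcc1 and Cyp4f18), and DESeq2 1, 0 and 0. The shares of all 6663 genes were 6.17%, 3.71% and 6.89% by edgeR. All of the 5 edgeR results had higher values in the first-named group, as did 87.1% of all genes at such a p in muMt-/- against WT and 86.9% in GABA against WT. With DESeq2 size factors these were 71.7% and 65.0%. The medians over the 16 were 0.29, 0.13 and 0.27.

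Ptgs2, Pla2g7 and Alox5ap followed the macrophage markers in the CD8 libraries, whereas Ptger4 did not. Over the 18 CD8 libraries the summed CPM of Ptgs2, Pla2g7 and Alox5ap ranked with the summed CPM of the 14 macrophage markers at Spearman's rho = 0.89 (Pearson r of log2 values 0.83), and the single genes gave r = 0.86, 0.80 and 0.79, whereas Ptger4 gave r = -0.18. These are descriptions over libraries of 3 groups that share their depth. The highest macrophage sums were 5825 CPM in muMt-/- replicate 1, where the 3 genes had 56 molecules, 3308 CPM in GABA replicate 3 with 31 molecules, and 3153 CPM in GABA replicate 1 with 72 molecules. In WT replicates 1 and 4 the sums were 309 and 186 CPM and the 3 genes had 0 molecules. In the CD8 libraries Ptgs2 was most like Cd14 (r = 0.95), Clec7a (0.95) and Il1b (0.92) among 1882 other genes, all myeloid genes.

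Set against the TAM level of the same mouse group, the CD8 level of the macrophage markers had a median of 1.86% in WT, 10.9% in muMt-/- and 14.2% with GABA, the highest being Cd14 at 10.8% in WT and 34.7% in muMt-/- and Itgam at 30.3% with GABA. Pla2g7 stood at 5.54%, 26.2% and 15.4%, Alox5ap at 10.4%, 26.1% and 18.3%, and Ptgs2 at 14.8%, 32.1% and 44.9% of the TAM level. Single CD8 libraries carried some of these: without GABA replicate 1, which held 51 of the 74 Ptgs2 molecules of its group, Ptgs2 stood at 17.5% and the marker median at 10.4%. Without WT replicate 5, Ptgs2, Pla2g7 and Alox5ap stood at 6.70%, 1.73% and 4.72% beside a marker median of 0.582%, this library holding 99 of the 172 marker molecules of its group. Without muMt-/- replicate 1 they stood at 23.2%, 19.4% and 15.0% beside 9.04%. With the mean log2 level of the macrophage markers as a covariate, the log2 fold changes of muMt-/- against WT were 1.20 (SE 0.78) for Pla2g7, 0.37 (SE 0.66) for Ptgs2 and -1.06 (SE 0.62) for Alox5ap, and 0 of the 4 members had an unadjusted p under 0.05 in any of the 3 comparisons. The marker level is itself measured in these libraries and moves with the groups, so its part and that of the genotype cannot be told apart.

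**Figure D3:**
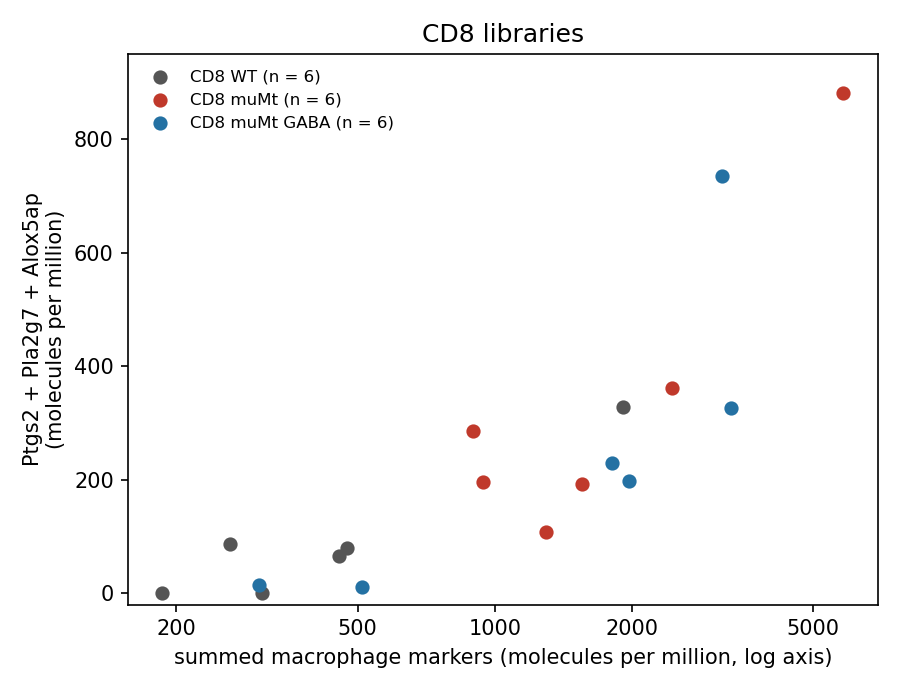
Summed level of Ptgs2, Pla2g7 and Alox5ap (CPM, vertical axis) against the summed level of 14 macrophage markers (CPM, log axis) in each CD8 library, coloured by group (n = 6 each). The 3 genes are highest in muMt-/- replicate 1 and GABA replicate 1, and 0 in WT replicates 1 and 4.

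Whether the effects of genotype and GABA differed between the cell types was tested as an interaction over all 36 libraries, in which 8 members were tested. Hpgds was at 0 in all 18 CD8 libraries, so its interaction could not be estimated. Ptgs1, Ptges and Ptger2 had 7, 11 and 15 molecules over the CD8 libraries, so a difference could easily be missed. The study's methods give 1 library per mouse but do not say whether this counts the 2 cell types together. Shared mice between TAM and CD8 libraries of a group therefore remain possible. This test and that between cell types treat the libraries as independent. For the muMt-/- effect no member was called by edgeR (background 0.0118%) or DESeq2 (background 0.0472%), and 1 of 8 had an unadjusted p under 0.05 by edgeR (background 10.1%). That gene was Pla2g7, with an interaction of -2.21 (SE 0.94, adjusted p = 0.406), and Ptgs2 had -1.14 (SE 0.89, adjusted p = 0.693). The median interaction over all 8477 genes was -0.30. Of all genes at such an unadjusted p, 17.4% were positive, or 37.6% with DESeq2 size factors. Both genes followed the macrophage markers in CD8 libraries, and the part of these markers in the interaction was not tested. For the GABA effect no member was called by edgeR (background 0%) or DESeq2 (background 0%), and 0 at an unadjusted p under 0.05 (background 4.53%). Ptgs2 had an interaction of -0.51 (SE 0.64, adjusted p = 0.994).

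Upstream sequence from RefSeq (GRCm38.p6) was found for 9 of the 10 members, all but Alox5ap. It is shown for both cyclooxygenase genes, one of which was called between groups of TAMs, as the 250 bases before the listed start on the + strand, 5′ to 3′. The Ptgs2 bases are chr1:150099781-150100030, where exons of the antisense gene Ptgs2os also lie, which was at 0 in all 36 libraries. The Ptgs1 bases are chr2:36230176-36230425, and the listed start lies inside the gene's full span. Capitals mark matches to the motifs searched.
Ptgs2: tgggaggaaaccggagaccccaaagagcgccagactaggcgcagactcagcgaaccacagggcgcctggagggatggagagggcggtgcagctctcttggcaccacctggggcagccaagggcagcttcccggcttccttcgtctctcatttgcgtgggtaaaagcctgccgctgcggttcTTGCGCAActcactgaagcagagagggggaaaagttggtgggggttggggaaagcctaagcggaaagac
Ptgs1: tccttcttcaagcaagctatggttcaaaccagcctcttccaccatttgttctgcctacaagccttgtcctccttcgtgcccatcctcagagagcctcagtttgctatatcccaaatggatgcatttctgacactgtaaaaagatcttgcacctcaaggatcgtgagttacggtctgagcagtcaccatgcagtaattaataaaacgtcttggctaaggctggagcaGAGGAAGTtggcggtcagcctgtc

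Motifs were searched on both strands in the 250 bases and were chosen after the values were seen: TTGCGCAA (bound by C/EBP factors), TGACGTCA (CRE), CACGTG (E-box), TGANTCA (AP-1), TATAAA, GAGGAAGT (PU.1) and the NF-κB motif. No match overlaps another in the sequences shown. The same window of all 32851 listed promoters held them in 0.164%, 1.55%, 6.02%, 6.75%, 12.4%, 2.44% and 7.25% of cases. Ptgs2 held 1 match, TTGCGCAA at -69 from the start. Ptgs1 held 1 match to GAGGAAGT at -24. The Hpgds window, where exons of Hpgds itself also lie, held the same letters at -49. A match is a description of letters and not of binding, and the other 6 members with sequence held none of these motifs in this window.

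Positions are from RefSeq on GRCm38, the assembly that the authors mapped to as mm10. Ptges, Alox5 and Pla2g7 overlap other annotated genes: Ptges overlaps Gm52550 and Gm13400, Alox5 overlaps Gm38880, and Pla2g7 overlaps 1700071M16Rik, which had 0 molecules. Whether the counting used strand is not given in the sources used here, so molecules of overlapping genes could be assigned to either.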

How the data were processed

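The deposited count table gives, per the labels and the methods, the number of distinct molecules per gene in each of 36 libraries, as the authors counted them after mapping with STAR to mm10. The counts were used as deposited, with no library left out and 2 repeated gene names kept as separate entries, neither a member. Of 24781 genes, those with a mean above 1 after division by DESeq2 size factors were tested with edgeR 4.0.16 (quasi-likelihood test, TMM scaling, Benjamini-Hochberg over all genes tested, threshold 0.05) in R 4.3.3: the 18 libraries of a cell type together, the 12 WT libraries for the cell types, and all 36 for interactions. DESeq2 1.42.0 gave a second test. Summaries used Python 3.11.15, numpy 2.4.6, pandas 2.3.3 and scipy 1.17.1, and figures matplotlib 3.10.9.

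Alternatives were DESeq2 with adjusted and unadjusted p, its size factors in edgeR, filterByExpr, no filter, a robust fit, the replicate number as a block, depth as a covariate, the macrophage marker level as a covariate (CD8), only the 12 libraries of a comparison, all 36 libraries (cell types), and leaving out each library. Named were all 10 members, pathway genes called or among the 3 smallest p in a TAM comparison, the 6 largest changes called between cell types, and the 3 genes most like each member with a mean of at least 5 by Pearson r of log2(normalized number + 1). The lists were the wider pathway and markers of macrophages, neutrophils, mast cells and basophils, eosinophils, dendritic cells, platelets, CD8 T cells, epithelium and stroma. Pf4 is also made by macrophages. The summed levels of 2 other marker lists are not reported here, and Ccr2, Plac8, Ly6c2, Chil3 and Hp are given singly. Members and lists were chosen with earlier results of these data known. Floors and ratio intervals (3 counts, 95%) cover counting error only.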

Additional observations from a re-analysis of the deposited data

Results flagged for a closer look

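Of 36 sets of 6 libraries checked, 8 held a library far from the other 5 of its group by Dixon's ratio of gap to range. This rule flags about 1 in 20 for normally distributed values. Many of these sets hold low counts, some with zeros, so the 8 cannot be set against that rate. In TAMs, Hpgds stood at 6.54 normalized molecules in WT replicate 4 (others 8.68 to 9.38) and at 22.6 in muMt-/- replicate 1 (others 4.18 to 9.95). Ptger2 stood at 3.69 in muMt-/- replicate 3 of the TAMs (others 1.24 to 1.88).

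In CD8 libraries, WT replicate 5 stood apart for Ptgs2, at 8.003 (others 0 to 2.25), and for Alox5ap, at 8.003 (others 0 to 2.40). Its macrophage markers summed to 1914 CPM, the highest of the WT CD8 libraries. GABA replicate 1 held 32.4 normalized molecules of Ptgs2 (others 0 to 6.40), muMt-/- replicate 1 held 16.2 of Alox5ap (others 0.833 to 5.72), and GABA replicate 6 held 4.73 of Ptger4 (others 0.781 to 1.86). The causes were not tested.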

How the results depend on the processing

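Of 363 values of the members under alternatives other than leaving out a library, 350 kept their direction and side of the threshold, 2 lost the call, 7 gained one and 4 changed sign. The calls gained came either from DESeq2's unadjusted p, a laxer threshold than the adjusted p, or from no filter. The call of Ptgs2 between muMt-/- and WT TAMs was lost under a robust fit and with depth as a covariate, which gave 0 members each, and its edgeR adjusted p ran from 0.000184 with no filter to 0.327 with depth. Signs changed for Hpgds in GABA against muMt-/- TAMs (0.0761) and Ptger4 in GABA against WT TAMs (0.0334) with depth, and for Alox5ap in CD8 muMt-/- against WT (-1.06) and GABA against WT (-1.25) with the macrophage markers. The causes were not tested.

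The number of genes called in muMt-/- against WT TAMs was 1042 by DESeq2 at an unadjusted p (2 members), 295 with filterByExpr, 343 with no filter, 11 with depth and 323 with only the 12 libraries. In GABA against muMt-/- TAMs it was 8 by DESeq2, 542 at its unadjusted p (1 member), 51 with no filter, 4 under the robust fit and 5 with depth. In GABA against WT TAMs it was 4 by DESeq2, 407 at its unadjusted p, 2 with filterByExpr, 63 with no filter and 4 with only the 12 libraries.

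In CD8 muMt-/- against WT it was 226 by DESeq2 at an unadjusted p (1 member), 72 of 13109 with no filter (2 members) and 1 with only the 12 libraries. In GABA against muMt-/- CD8 T cells it was 133 at DESeq2's unadjusted p, 11 with no filter, 6 with depth and 5 with the macrophage markers. In GABA against WT CD8 T cells it was 1 by DESeq2, 225 at its unadjusted p and 1 with its size factors. It was 64 of 13109 with no filter (1 member), 10 with the macrophage markers and 1 with only the 12 libraries. Between WT cell types filterByExpr gave 1086 of 2526 genes tested and all 3 members tested. In the muMt-/- interaction DESeq2's unadjusted p gave 637 of 8477 genes and 1 of 8 members. In CD8 T cells filterByExpr left no member tested. DESeq2 size factors moved the median of all genes by -0.15 in GABA against WT CD8 T cells, -0.11 between WT cell types and 0.19 in the muMt-/- interaction.

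After subtracting group means, libraries with the same replicate number correlated at r = -0.39 to 0.45 between CD8 groups, -0.21 to 0.12 between TAM groups and -0.06 to 0.41 between TAM and CD8 libraries of a group. Some pairs were thus alike and others were not, and shared mice or batches were not tested. As a block the replicate number gave 4 genes in GABA against muMt-/- TAMs, 2 in the same CD8 comparison and 1 in GABA against WT CD8 T cells.

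Leaving out a library gave 67 to 231 genes and 0 to 1 members in muMt-/- against WT TAMs, with 67 without muMt-/- replicate 4, 87 without WT replicate 1 and 125 without WT replicate 6. It gave 2 to 36 in GABA against muMt-/- TAMs (36 without GABA replicate 1), 2 to 9 in GABA against WT TAMs, 0 to 13 in muMt-/- against WT CD8 T cells (13 without WT replicate 5), 0 to 1 in both other CD8 comparisons, and 1803 to 1999 genes and 4 to 5 members between WT cell types. Log2 fold changes that changed sign ran from -0.68 to 0.11 (Ptges) and -0.31 to 0.59 (Ptgs1) in muMt-/- against WT TAMs. In GABA against muMt-/- TAMs they ran from -0.37 to 0.24 (Hpgds), -0.45 to 0.18 (Ptger2), -0.36 to 0.53 (Ptgs1) and -0.35 to 0.0365 (Pla2g7), and in GABA against WT TAMs from -0.17 to 0.14 (Ptger4) and -0.23 to 0.0049 (Alox5ap). In CD8 T cells they ran from -0.31 to 0.10 for Ptger4 in muMt-/- against WT, and in GABA against muMt-/- from -0.60 to 0.60 (Alox5ap) and -1.39 to 0.40 (Ptgs2).

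Alox5 and Ltc4s did not pass the filter in either cell type. The part of library size (100 cells) in this was not tested.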
